A study of Homo sapiens with 6 samples.

Results

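HOX cluster genes were taken as every probe set whose platform gene symbol was HOXA, HOXB, HOXC or HOXD followed by a number alone, so that antisense genes stayed out. The rule gave 23 genes with 1 probe set each, among 21448 probe sets in all and against 39 HOX genes in the RefSeq gene table. HOXA on chromosome 7 was represented by 1 of its 11 genes, HOXB on chromosome 17 by 8 of 10, HOXC on chromosome 12 by 6 of 9 and HOXD on chromosome 2 by 8 of 9. The other 16 genes, which include HOXB3, HOXB4, HOXC4, HOXC5, HOXC6, HOXD1 and every HOXA gene except HOXA2, were not analysed here.

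The cells were K562, an established human line labelled as bone marrow erythroleukemia. The sample titles gave the groups, 3 arrays of cells carrying a miR-543 vector, labelled as overexpressing this microRNA, and 3 arrays of cells carrying a control vector. The labels name no promoter, clone or culture for either vector, so the p-values cover the spread between these arrays, and that spread may be purely technical. All values are RMA signals on the log2 scale, and 0 probe sets carried the name of MIR543, so the overexpression itself could not be read from the arrays.

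HOX genes encode homeodomain transcription factors that lie side by side in 4 clusters, and the number in a gene's name follows its place in the cluster. In embryos, genes with low numbers are used in the head and upper trunk and genes with high numbers towards the tail, and equal numbers in different clusters mark paralogs of common descent. In blood, HOXA and HOXB genes of the middle of the clusters are active in stem and progenitor cells and are shut off as cells mature, and HOXA9 with its partner MEIS1 is known for its part in acute myeloid leukaemia. Trithorax proteins such as KMT2A keep active clusters open, Polycomb proteins keep silent clusters closed, and silent HOX promoters in cell lines often carry DNA methylation.

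The series title names TET enzymes, which act on methylated cytosine at CG pairs, as targets of the microRNA. The agent of the study and the promoters of a pair of HOXD genes are therefore shown, all credited to RefSeq (GRCh38.p14). The mature miR-543 lies at chr14:101032033-101032054 on the plus strand, and capitals mark its seed, bases 2 to 8, the part with which a microRNA finds its targets.
miR-543: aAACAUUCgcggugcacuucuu
The promoter windows run from 250 bases before to 50 bases after the gene start, and capitals mark each CG. HOXD12 (chr2:176099545-176099844, plus strand) and HOXD10 (chr2:176116528-176116827, plus strand) were picked after their values were seen, as the HOXD genes with the highest and the lowest log2 change. Neither change passed the test given below (limma adjusted p = 0.471 for HOXD12 and 0.612 for HOXD10), and the signals of HOXD10 were low with both vectors.
HOXD12: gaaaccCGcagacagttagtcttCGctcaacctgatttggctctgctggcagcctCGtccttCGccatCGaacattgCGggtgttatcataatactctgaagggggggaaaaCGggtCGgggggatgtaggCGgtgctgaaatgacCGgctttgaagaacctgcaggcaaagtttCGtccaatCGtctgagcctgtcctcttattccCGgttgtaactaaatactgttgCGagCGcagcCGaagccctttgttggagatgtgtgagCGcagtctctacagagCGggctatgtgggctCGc
HOXD10: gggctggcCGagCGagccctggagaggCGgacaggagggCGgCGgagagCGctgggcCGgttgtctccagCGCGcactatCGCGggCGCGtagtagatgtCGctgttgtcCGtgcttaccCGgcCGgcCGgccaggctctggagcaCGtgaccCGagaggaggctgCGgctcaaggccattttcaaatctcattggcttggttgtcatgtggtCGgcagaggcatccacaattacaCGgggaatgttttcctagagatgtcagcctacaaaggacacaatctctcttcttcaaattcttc
The HOXD12 window holds 19 CG pairs, a number that 42.9% of all 35116 promoter windows in the table reach, and the HOXD10 window holds 23, which 35.8% reach. CG reads the same on both strands, so each pair was counted once. Windows were listed for 9 of the 23 HOX genes and held 4 to 34 CG pairs, from HOXD4 to HOXD8, beside a median of 14 over all windows. DNA methylation was not measured, and these counts are a description of the sequence alone.

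Most of the HOX genes analysed here gave low signals in K562. With the miR-543 vector 5 of the 23 genes had a mean at or above the median of all probe sets (6.0) and 11 lay below the lower quartile, and with the control vector 4 of 23 lay at or above the median (5.99) and 10 below the lower quartile (3.99). HOXB2 and HOXB9 were the 2 members above the upper quartile (9.64 with the control vector), and HOXB7 and HOXC9 lay between the median and that quartile. HOXB6 lay at the median, above it with the miR-543 vector and below it with the control vector. Probe sets differ in how strongly they respond to the same amount of RNA, and no detection calls were used, so these positions describe signals and do not rank mRNA amounts.

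**Figure D1:**
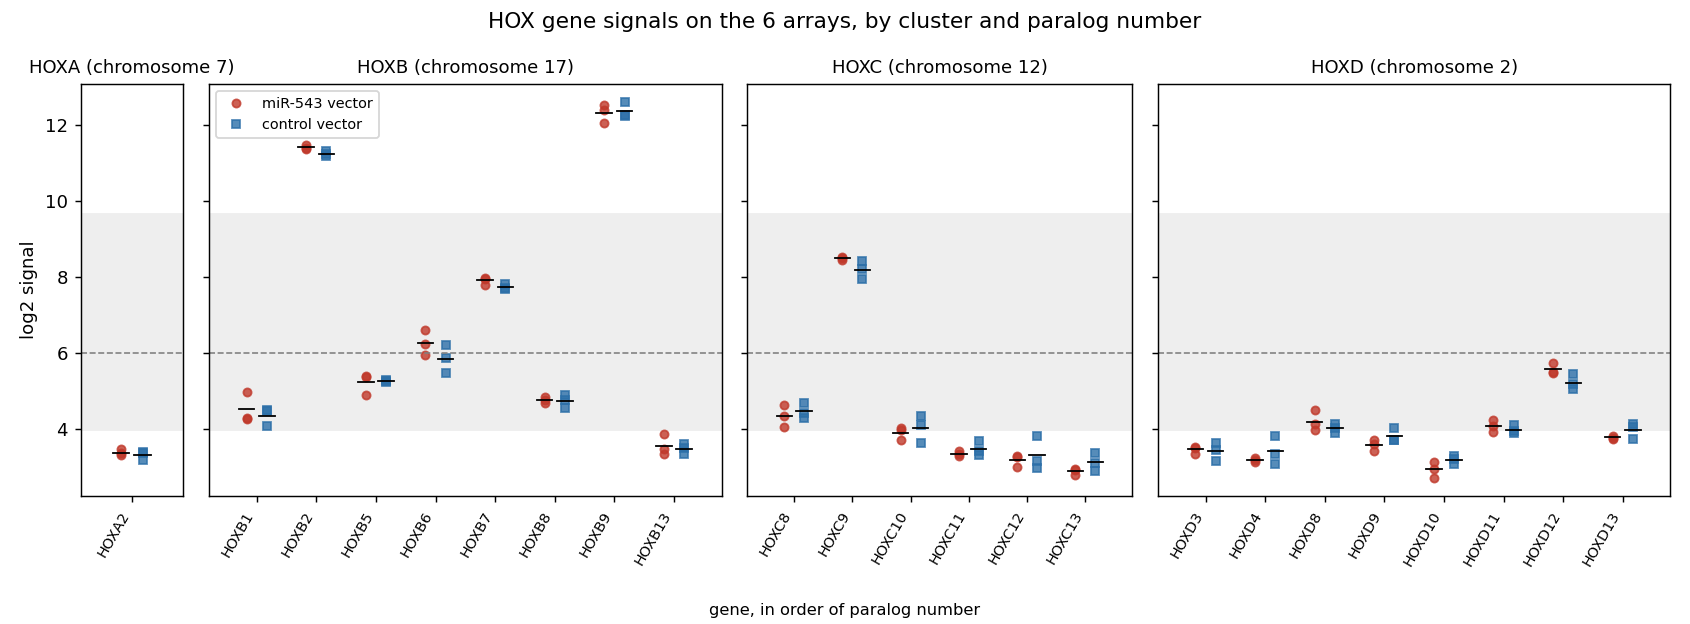
log2 signal of each HOX gene on every array, in panels by cluster and ordered by paralog number; circles are the 3 miR-543 arrays, squares the 3 control arrays, black bars the group means, the grey band the span from the lowest lower quartile (3.98) to the highest upper quartile (9.66) of the arrays and the dashed line the mean array median. HOXB2 and HOXB9 stand above the band, HOXB7 and HOXC9 in its upper part, and 10 of the 23 control means lie below the lower quartile.

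The HOXB cluster held 2 genes above the upper quartile, HOXB9 and HOXB2. HOXB9, a trunk patterning factor, read 12.51, 12.38 and 12.04 with the miR-543 vector, against 12.59, 12.23 and 12.25 with the control vector, and its control mean lay above 91.6% of all probe sets. HOXB2, which acts early in the hindbrain and is also made in erythroid and progenitor cells, read 11.36, 11.47 and 11.39 with the miR-543 vector, against 11.24, 11.30 and 11.17 with the control vector, above 85.8% of probe sets. All 3 miR-543 arrays of HOXB2 lay above all 3 control arrays, whereas the groups of HOXB9 overlapped.

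HOXB7, a factor also linked to proliferation in several cancers, read 7.80, 7.96 and 7.98 with the miR-543 vector, against 7.71, 7.83 and 7.69 with the control vector. HOXB6, a gene known from early erythroid and myeloid precursors, read 6.23, 6.60 and 5.94 with the miR-543 vector, against 6.21, 5.47 and 5.87 with the control vector. Both genes overlapped between the groups, and HOXB6 had the widest spread of the HOXB genes with the control vector.

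The HOXB neighbours of these genes read low. HOXB1, the first gene of the cluster and a hindbrain factor, averaged 4.52 ± 0.40 with the miR-543 vector and 4.35 ± 0.23 with the control vector (SD, n = 3 each). HOXB5, a trunk and gut factor, averaged 5.23 ± 0.28 with the miR-543 vector and 5.26 ± 0.03 with the control vector (SD, n = 3 each). HOXB8, which sits between HOXB7 and HOXB9 and can hold myeloid progenitors in an immature state, averaged 4.77 ± 0.09 with the miR-543 vector and 4.75 ± 0.17 with the control vector (SD, n = 3 each). HOXB13, at the far end and known from the prostate, averaged 3.57 ± 0.28 with the miR-543 vector and 3.49 ± 0.14 with the control vector (SD, n = 3 each). HOXB13 was the 1 HOXB gene with a control mean below the lower quartile. In 5 of the 8 HOXB genes miR-543 replicate 2 was the highest array of its group.

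HOXC9 was the 1 HOXC gene at or above the median. It read 8.53, 8.44 and 8.51 with the miR-543 vector, against 8.41, 7.96 and 8.20 with the control vector, so that the lowest miR-543 array lay just above the highest control array. Its neighbour HOXC8, a factor of the thoracic trunk, averaged 4.35 ± 0.30 with the miR-543 vector and 4.47 ± 0.20 with the control vector (SD, n = 3 each). On the other side, HOXC10, a limb and lumbar factor, averaged 3.91 ± 0.17 with the miR-543 vector and 4.03 ± 0.37 with the control vector (SD, n = 3 each). HOXC11 averaged 3.35 ± 0.07 with the miR-543 vector and 3.47 ± 0.19 with the control vector, and HOXC12 3.20 ± 0.15 with the miR-543 vector and 3.32 ± 0.43 with the control vector (SD, n = 3 each). HOXC13, needed for hair and nails, read 2.81, 2.96 and 2.94 with the miR-543 vector, against 3.38, 3.10 and 2.91 with the control vector. The 5 HOXC genes other than HOXC9 overlapped between the groups.

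The HOXD cluster, known above all for the limbs, had 0 of 8 genes at or above the median with either vector. HOXD12 gave its highest signals, 5.48, 5.51 and 5.73 with the miR-543 vector, against 5.18, 5.05 and 5.45 with the control vector, and these groups did not overlap. HOXD10 read 3.14, 2.73 and 2.96 with the miR-543 vector, against 3.21, 3.29 and 3.09 with the control vector. HOXD9 read 3.43, 3.62 and 3.73 with the miR-543 vector, against 3.72, 4.03 and 3.73 with the control vector. HOXD13, which shapes the digits, read 3.83, 3.75 and 3.77 with the miR-543 vector, against 4.07, 3.74 and 4.15 with the control vector. In HOXD10, HOXD9 and HOXD13 at least 1 miR-543 array reached the range of the control arrays.

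HOXD3 averaged 3.47 ± 0.10 with the miR-543 vector and 3.42 ± 0.24 with the control vector (SD, n = 3 each). HOXD4 averaged 3.19 ± 0.05 with the miR-543 vector and 3.42 ± 0.37 with the control vector (SD, n = 3 each). These 2 genes overlap in the gene table, so their signals may not be separate. HOXD8 averaged 4.20 ± 0.27 with the miR-543 vector and 4.02 ± 0.11 with the control vector, and HOXD11 4.08 ± 0.16 with the miR-543 vector and 3.99 ± 0.11 with the control vector (SD, n = 3 each). The single HOXA gene, HOXA2, a factor of the hindbrain and the second branchial arch, averaged 3.39 ± 0.08 with the miR-543 vector and 3.33 ± 0.12 with the control vector (SD, n = 3 each), below the lower quartile with both vectors. Over the 23 genes the widest range within a group was 0.70 with the miR-543 vector (HOXB1) and 0.82 with the control vector (HOXC12).

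The paralogs measured in 3 clusters were also read by number. In group 9, HOXB9 stood above the upper quartile, HOXC9 between the median and that quartile, and HOXD9 below the lower quartile. In group 8, HOXB8, HOXC8 and HOXD8 all lay between the lower quartile and the median. In group 13, HOXB13, HOXC13 and HOXD13 all lay below the lower quartile. These positions were the same with both vectors.

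The comparison of miR-543 vector minus control vector asked which HOX mRNAs differed between the vectors, with limma over all probe sets and Benjamini-Hochberg adjustment over all of them. Of the 23 HOX genes 0 had an adjusted p under 0.05, the threshold for a call, beside 0.569% of all probe sets (0.131% called higher and 0.438% called lower). At an unadjusted p under 0.05 there was 1, HOXD12, or 4.35% of the HOX genes, beside 10.6% of all probe sets. Groups did not overlap for 3 of 23 genes (13.04%), HOXB2, HOXC9 and HOXD12, all 3 higher with the miR-543 vector, beside 15.4% of all probe sets in either direction and 7.89% higher and 7.5% lower. In either direction the HOX shares at an unadjusted p and without overlap were thus below those of all probe sets. The share without overlap and higher was above 7.89%, but it rests on these same 3 genes. That direction was singled out after the values were seen. The shares were not tested, and nothing about the HOX genes is concluded from them.

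HOXD12 had a log2 change of 0.35 (SE 0.16, 95% interval 0.00091 to 0.69, limma adjusted p = 0.471). Its signals lay below the median with both vectors, and without detection calls the size of a difference in RNA is uncertain there too. HOXC9 had a log2 change of 0.30 (SE 0.15, 95% interval -0.04 to 0.64, limma adjusted p = 0.529), which corresponds to 1.23-fold. HOXB6 had the largest difference, 0.41 or 1.33-fold, with an SE of 0.22, a 95% interval of -0.08 to 0.90 and a limma adjusted p of 0.563. None of these 3 differences passed the test, and that of HOXB6 was close to the SD within either of its groups (0.33 with the miR-543 vector and 0.37 with the control vector).

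HOXB2, HOXB7 and HOXB9, at or above the median with both vectors, lay closer to 0. HOXB2 differed by 0.17 on the log2 scale (95% interval -0.12 to 0.46, limma adjusted p = 0.711). HOXB7 also differed by 0.17 (95% interval -0.13 to 0.47, limma adjusted p = 0.722). The change of HOXB9 was -0.05 (95% interval -0.43 to 0.33, limma adjusted p = 0.955). A change of 2-fold, 1 on the log2 scale, lay outside each of these intervals.

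On the lower side, HOXD10 had a log2 change of -0.25 (95% interval -0.59 to 0.08, limma adjusted p = 0.612), HOXD9 one of -0.23 (-0.57 to 0.11, limma adjusted p = 0.652), HOXC13 one of -0.23 (-0.57 to 0.12, limma adjusted p = 0.675) and HOXD13 one of -0.20 (-0.54 to 0.13, limma adjusted p = 0.701). All 4 had signals below the lower quartile with both vectors, where the size of a difference in RNA is uncertain. For the 23 HOX genes the limma adjusted p ran from 0.471 to 0.976. All 23 intervals lay within a log2 change of 1 in either direction, with -0.63 (HOXD4) and 0.90 (HOXB6) as the outermost bounds. The same held for 20729 of all 21448 probe sets. At signals below the lower quartile such an interval describes the signal and does not bound the change in RNA.

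**Figure D2:**
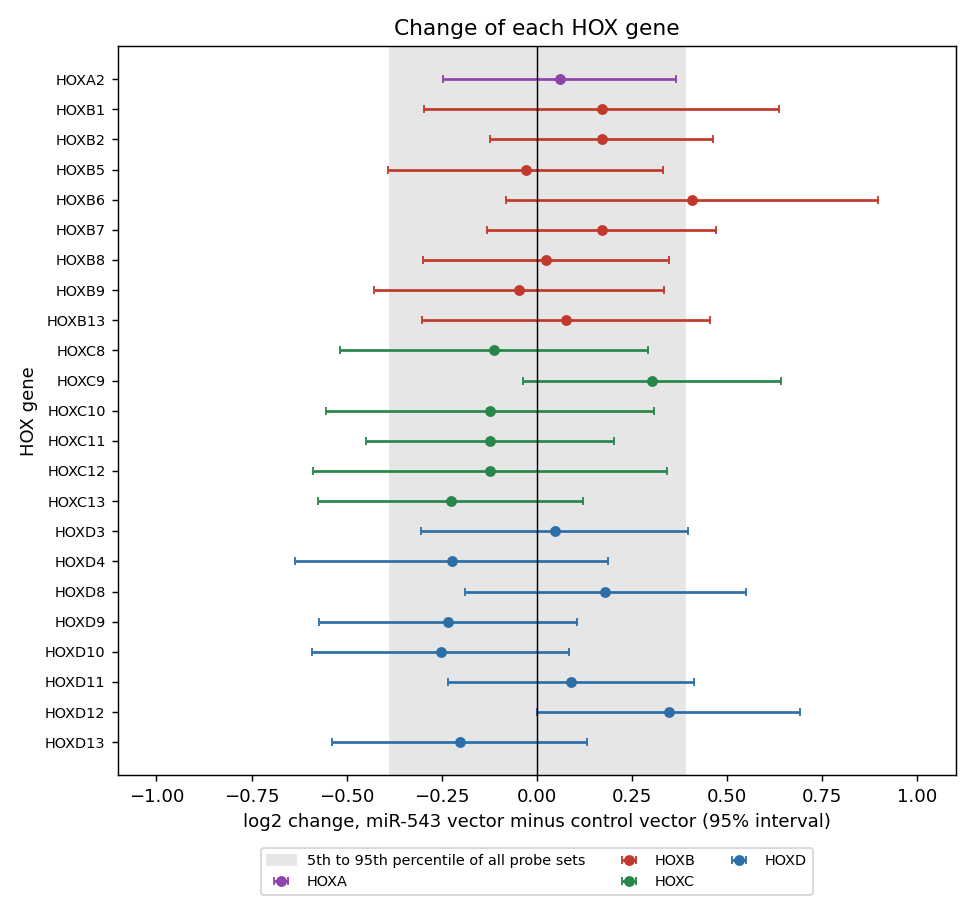
log2 change of each HOX gene, miR-543 vector minus control vector, with its 95% interval from limma (horizontal bars) and the cluster as colour; the grey band runs from the 5th (-0.39) to the 95th percentile (0.39) of the changes of all probe sets. HOXB6 is the 1 gene outside the band, and HOXD12 the 1 gene whose interval leaves out 0.

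Seen by cluster, the changes went both ways. Of the 23 genes 12 lay above 0 and 11 below, a share of 52.2% above 0 beside 52.3% of all probe sets, and the median log2 change was 0.02, beside 0.01 over all probe sets. The median size of the change regardless of sign was 0.17 for HOX genes and 0.14 for all probe sets. In HOXB 6 of 8 genes lay above 0, HOXB5 and HOXB9 being the exceptions, with a median of 0.12 and a range of -0.05 to 0.41. In HOXC 5 of 6 genes lay below 0, HOXC9 being the exception, with a median of -0.12 and a range of -0.23 to 0.30. In HOXD 4 of 8 genes lay above 0, with a median of -0.08 and a range of -0.25 to 0.35. HOXA2 had a log2 change of 0.06. Genes of a cluster share a locus and are no replicates of each other, and 7 of the 10 genes below the lower quartile with the control vector had negative values. The share among all probe sets at such signals was not computed, so nothing is concluded from this count.

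**Figure D3:**
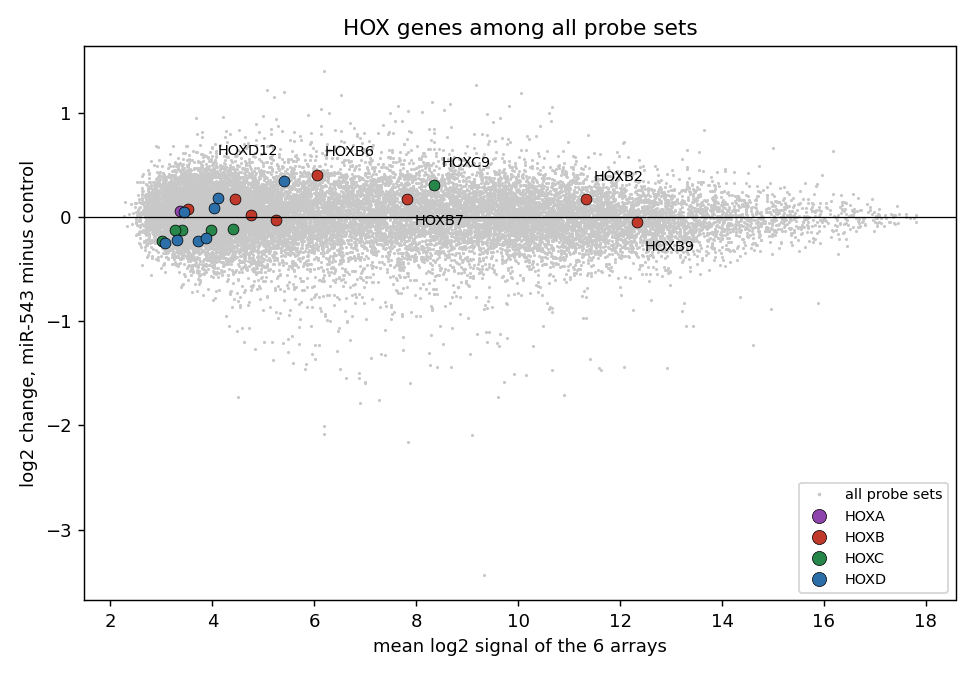
log2 change (miR-543 vector minus control vector) against the mean log2 signal of the 6 arrays for all 21448 probe sets (grey) and the HOX genes (coloured by cluster). The HOX genes lie within the grey cloud at every signal, with HOXB2 and HOXB9 to the right of the rest.

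The remaining HOX genes all had 95% intervals that took in 0. HOXB1 had a log2 change of 0.17 with an SE of 0.21, HOXB13 one of 0.08 with an SE of 0.17, HOXB8 one of 0.02 with an SE of 0.15 and HOXB5 one of -0.03 with an SE of 0.16. HOXC8 had a log2 change of -0.11 with an SE of 0.18, and HOXC10, HOXC11 and HOXC12 each had one of -0.12, with SEs of 0.19, 0.15 and 0.21. HOXD8 had a log2 change of 0.18 with an SE of 0.17, HOXD11 one of 0.09 with an SE of 0.15, HOXD3 one of 0.05 with an SE of 0.16 and HOXD4 one of -0.22 with an SE of 0.19.

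Noncoding RNAs that run through the clusters can overlap HOX genes, and 10 of the 23 genes overlap another gene in the gene table. Among these, HOXD3 and HOXD4 overlap each other, and the rest overlap a noncoding RNA. The labels do not say whether the probes tell the strands apart, so pairs of a HOX gene and a noncoding RNA are uncertain. HOXB6 and HOXB5 both overlap HOXB-AS3, which averaged 5.74 ± 0.23 with the miR-543 vector and 5.71 ± 0.24 with the control vector (SD, n = 3 each), so its change was 0.03 (95% interval -0.36 to 0.42). HOXA-AS3 differed by 0.36 on the log2 scale (95% interval -0.18 to 0.90, limma adjusted p = 0.66). These were the 2 measured members of 24 listed noncoding RNAs of the clusters, and 0 were called.

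HOX proteins bind DNA together with homeodomain cofactors of the TALE class, of which 7 of 9 listed were measured. MEIS2 averaged 12.45 ± 0.10 with the miR-543 vector and 12.51 ± 0.13 with the control vector, and PBX2 11.82 ± 0.11 with the miR-543 vector and 11.76 ± 0.10 with the control vector (SD, n = 3 each), both above the upper quartile. MEIS1, the leukaemia partner of HOXA9, averaged 7.41 ± 0.14 with the miR-543 vector and 7.26 ± 0.19 with the control vector (SD, n = 3 each). PBX3 and MEIS3 lay below the median with both vectors. None of the 7 was called up or down, 4 lay above 0 and the median log2 change was 0.03. By smallest p the first were MEIS1 (log2 change 0.15), PKNOX1 (0.17) and PBX4 (-0.20).

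Proteins that switch the clusters on or off came next. Of 20 listed activators 19 were measured, 0 were called and the median log2 change was -0.11, with 8 above 0. RBBP5, a core subunit of the KMT2 methyltransferase complexes, read 11.03, 10.94 and 10.88 with the miR-543 vector, against 11.42, 11.35 and 11.10 with the control vector, a log2 change of -0.34 (limma adjusted p = 0.444). The retinoic acid receptor RARG had a log2 change of 0.42 and the caudal factor CDX4 one of -0.35 (limma adjusted p = 0.461 and 0.47), both at signals below the lower quartile. Of 18 Polycomb genes 12 were measured, 0 were called, 9 lay below 0 and the median was -0.12. SUZ12, a core subunit of Polycomb repressive complex 2, read 12.15, 12.23 and 12.09 with the miR-543 vector, against 12.85, 12.81 and 12.46 with the control vector, a log2 change of -0.55 (limma adjusted p = 0.223). PCGF2 and CBX7 had log2 changes of -0.39 and 0.36 (limma adjusted p = 0.488 and 0.572).

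Relatives of the HOX genes outside the rule read low as well. Of the 13 homeobox genes linked to the clusters or of the ParaHox group, 1 lay above the median with the control vector, MNX1, which averaged 7.13 ± 0.14 with the miR-543 vector and 7.07 ± 0.13 with the control vector (SD, n = 3 each). None of the 13 was called, 5 lay above 0, and the smallest p-values belonged to CDX4, GBX2 (log2 change -0.20) and CDX1 (-0.19).

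The genes next to the clusters describe the surroundings of the HOX genes. Of the 26 neighbours, the 3 nearest measured protein-coding genes on each side plus PRAC1 and PRAC2 between HOXB9 and HOXB13, 0 were called and 16 lay above the upper quartile with the control vector. Around HOXA all 6 neighbours lay below 0 (median -0.04), led by SNX10 at -0.17, and SKAP2, EVX1, HIBADH, TAX1BP1 and CBX3 lay between -0.10 and -0.01. Around HOXB 7 of 8 lay above 0 (median 0.11), with 0.40 for PRAC1, 0.28 for SKAP1 and 0.17 for PRAC2. Around HOXC all 6 lay above 0 (median 0.24), with 0.40 for ATP5MC2, 0.34 for the erythroid and megakaryocyte factor NFE2 and 0.30 for the DNA repair enzyme SMUG1. Around HOXD 5 of 6 lay below 0 (median -0.30), with -0.51 for NFE2L2, the master factor of the oxidative stress response, -0.43 for LNPK and -0.32 for AGPS.

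**Figure D4:**
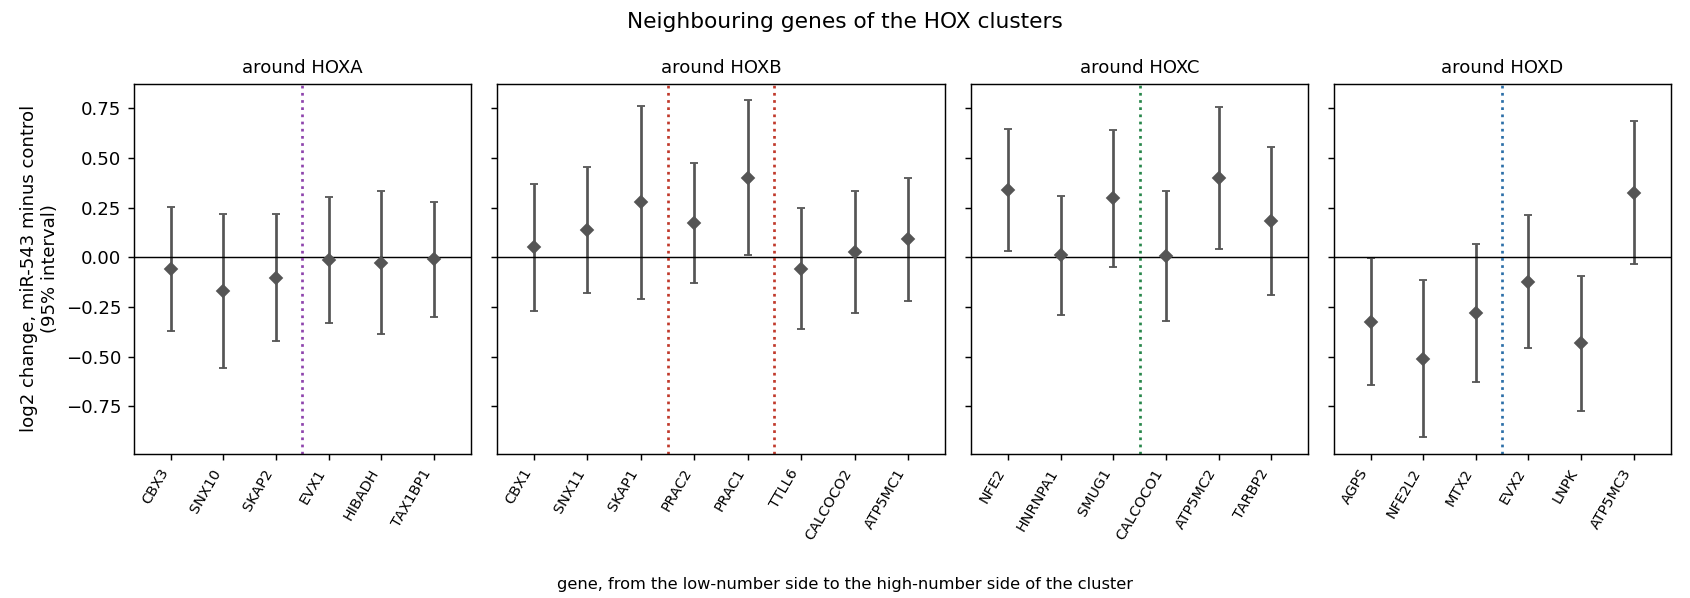
log2 change, miR-543 vector minus control vector, with 95% intervals, of the measured protein-coding genes next to each HOX cluster; dotted lines mark the place of the cluster, and PRAC2 and PRAC1 lie inside the HOXB span. Neighbours of HOXC lie above 0, those of HOXD below 0 except ATP5MC3, and the lowest adjusted p among the 26 genes is 0.35 (NFE2L2). Over all 4 clusters 14 of the 26 genes lie above 0.

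Among further neighbours, HNRNPA1 on the HOXC4 side averaged 17.03 ± 0.06 with the miR-543 vector and 17.02 ± 0.10 with the control vector, and MTX2 on the HOXD1 side averaged 11.08 ± 0.22 with the miR-543 vector and 11.36 ± 0.11 with the control vector (SD, n = 3 each). The EVX genes at the far ends read low, with 2.87 ± 0.11 with the miR-543 vector and 2.88 ± 0.14 with the control vector for EVX1, and 4.26 ± 0.22 with the miR-543 vector and 4.39 ± 0.04 with the control vector for EVX2 (SD, n = 3 each).

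The label of the cells was checked against markers. Of 15 erythroid markers 11 were measured, all 11 lay above the median and 7 above the upper quartile with the control vector, and their summed log2 signal was 139.29 to 140.62 on the miR-543 arrays and 136.48 to 138.09 on the control arrays. Of 9 measured stromal markers 8 lay below the median with the control vector, COL1A2 being the exception, the log2 changes of all 9 lay above 0, and the sum was 42.41 to 43.30 on the miR-543 arrays and 39.16 to 41.49 on the control arrays. Sums of 9 B and T cell markers were 52.95 to 53.95 on the miR-543 arrays and 51.97 to 53.08 on the control arrays, and sums of 10 epithelial markers 61.33 to 61.71 on the miR-543 arrays and 60.19 to 62.39 on the control arrays. None of these 39 markers was called. By smallest p the erythroid list was led by KLF1, a master factor of red cells (log2 change 0.66, limma adjusted p = 0.106), the factor TAL1 (0.41) and the haem synthesis enzyme ALAS2 (0.40). Genes picked by their p tend to have groups that do not overlap. In KLF1, TAL1, ALAS2, HBA1 and HBA2 all miR-543 arrays lay above all control arrays, and the other measured erythroid markers overlapped. HBA1 and HBA2 gave nearly the same signal on every array (control mean 15.70 for both), so they may not be separate, and both enter the erythroid sum. Over all probe sets 7.89% did not overlap and were higher. The stromal list was led by LUM (0.32, groups not overlapping), PDGFRB (0.40) and PDGFRA (0.28). LUM lay below the lower quartile with both vectors, and 4 of the 9 stromal markers did with the control vector. At such signals the size of a difference in RNA is uncertain. The lymphoid list was led by CD3D (0.64, groups not overlapping, limma adjusted p = 0.184), CD79B (0.23) and CD79A (0.26), and the epithelial list by CLDN7 (0.30), EPCAM (-0.24) and KRT7 (0.21). Groups of the epithelial marker KRT19 did not overlap either, and it was lower with the miR-543 vector (-0.15), as were 7.5% of all probe sets without overlap. The part of these markers, and of the erythroid and stromal sums that moved with the group, in the HOX values was not tested. EPCAM, KRT19 and CLDN7 among the epithelial markers and CD3D, CD3G, CD79A and PAX5 among the lymphoid markers lay above the median with the control vector. In bulk RNA, fewer cells of a type and less RNA per cell cannot be told apart. Array medians lay between 5.99 and 6.01.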

How the data were processed

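Total RNA of K562 cells was measured on 6 single-colour biotin arrays. The values are log2 signals per probe set as deposited by the authors, made per the submitters' processing notes with Transcriptome Analysis Console 4.0 and RMA. The RMA variant, annotation release and genome build are not given in the sources used here. The table held 21448 probe sets and 0 columns of other samples. Names came from the platform annotation (17709 probe sets with 1 symbol, 0 with several, 3739 unnamed), and all 23 HOX symbols were current in the RefSeq gene table of GRCh38.p14, used for names and gene order.

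All probe sets were fitted with limma 3.58.1 in R 4.3.3 (lmFit, eBayes), miR-543 vector minus control vector, with no filter, block or weights. The tests are two-sided, SE is the moderated standard error, and a call is an adjusted p under 0.05 (Benjamini-Hochberg). The steps were tested on simulated data. Lists were described by counts and medians, with no set test. Every HOX gene was named. Values on every array were given for called genes (0), for the 4 with a control mean at or above the median of all probe sets, and for the 6 others with the smallest p; of each list, up to 3 members with the smallest p were named, and further members mentioned were chosen after their values were seen. Members and lists were chosen with earlier results of these data known. The alternatives were other priors, normalizations, a filter, weights, a replicate block, a threshold on the change and leaving out each array. The number of arrays limits the precision.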

Additional observations from a re-analysis of the deposited data

How the results depend on the processing

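Over 14 alternatives 0 HOX genes were called, and the lowest limma adjusted p of any HOX gene in the alternatives run for single genes was 0.334 (HOXC9). Over all probe sets the count of calls, 122, became 252 with a trend and robust prior, 12 when tested against a log2 change of 0.5, and 34 to 59 when each array was left out. Deviations of same-numbered arrays from their group means correlated at 0.0948, -0.0527 and 0.0181, and not every array correlated best with its own number. These values showed no pairing by replicate number, but with 3 arrays per group they cannot exclude it. With the replicate number as a block 71 probe sets and 0 HOX genes were called. The median HOX log2 change of 0.02 became 0.17, with 4 of 5 genes above 0, when only probe sets at or above the median mean were kept, which leaves HOXB2, HOXB6, HOXB7, HOXB9 and HOXC9, and it ran from -0.017 (without miR-543 replicate 2) to 0.087 (without control replicate 3) when each array was left out. Each symbol had 1 probe set, so averaging the rows of a symbol changed nothing.

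Of 258 alternative fits of single HOX genes, 12 in 10 genes turned the sign, all by leaving out 1 array. The log2 changes then ran from -0.0083 to 0.10 for HOXA2, -0.06 to 0.29 for HOXB1, -0.12 to 0.13 for HOXB5, -0.07 to 0.10 for HOXB8, -0.15 to 0.088 for HOXB9, -0.08 to 0.185 for HOXB13, -0.26 to 0.038 for HOXC8, -0.325 to 0.035 for HOXC10, -0.29 to 0.12 for HOXC12 and -0.08 to 0.155 for HOXD3. The other 13 genes kept their sign in every alternative run. Signals below the lower quartile limit what can be seen for 10 of the 23 genes. No detection calls were used, so the quartile is not a detection limit. The 9 genes between it and the median with the control vector, HOXD12 among them, may be limited in the same way.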
